A study of Mus musculus with 7 samples.

Results

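The proteasome genes examined here were those whose symbols begin with Psma, Psmb, Psmc, Psmd, Psme, Psmf or Psmg and that an array probe reaches through a curated messenger RNA accession. There were 50 such genes on the array, and 49 of them were measured, out of 23678 genes tested in all. Each gene was read on 1 probe, the brightest of those that passed a signal filter (well above background on 3 or more of the 7 arrays). Of the 23678, 14720 had a gene symbol, and the others were probe targets without one, counted under the array's own name for them. Shares of all genes given below are over both kinds. The measured genes comprised 15 core ring subunits of the standard and testis type, 17 regulatory particle subunits, 4 immunoproteasome genes, 3 further genes for activators and an inhibitor (Psme3, Psme4 and Psmf1), 7 assembly factors and 3 other genes that carry such a symbol (Psmc3ip, Psme2b and Psme3ip1).

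The arrays came from the heart apex of 7 male C57Bl/6 mice, 1 array per mouse, and the question put by the design is how cardiac transcripts differ once both Akt1 and Akt2 are deleted in cardiomyocytes. Akt1 and Akt2 encode kinases that carry insulin and growth factor signals. The 4 control mice were heterozygous for MHC-mercremer, a tamoxifen-dependent Cre recombinase driven by the alpha myosin heavy chain promoter, which is active in cardiomyocytes. The 3 double knockout mice (DKO) carried the same transgene and homozygous floxed alleles of AKT1 and AKT2. Every mouse, control or DKO, had been injected with hydroxytamoxifen, 500 µg a day on 5 days, at an age of 3 months, and hearts were taken 10 days after induction. Recombination is limited to cardiomyocytes, whereas the RNA came from all cells of the apex. Fewer cells of a type and less RNA per cell cannot be told apart in such samples.

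The proteasome is the protease that degrades ubiquitin-tagged proteins. Its core is a barrel of stacked rings: the alpha subunits form the gated outer rings, and the beta subunits form the inner rings, in which Psmb5, Psmb6 and Psmb7 hold the active sites. A regulatory particle caps the barrel, with a base of ATPases that unfold substrates and a lid and receptors that recognise and remove ubiquitin. Interferon-inducible beta subunits replace the constitutive active-site subunits in the immunoproteasome, and the alternative activators Psme1 to Psme4 can cap the core instead of the regulatory particle. Heart muscle relies on this system for the turnover of sarcomeric and damaged proteins.

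Detection was similar on all arrays. Between 50.9% and 55.7% of probes on an array were well above background, no spot was saturated, and the small number of arrays limits precision. All 49 measured genes were above background on all 7 arrays, and Psmb11, the thymus-specific beta subunit, on none. Psme2 had no probe of its own here: the probes that could report it are annotated to its near-identical retrocopy Psme2b, so that value may belong to either gene. The brightest Akt2 probe was 4.13-fold lower in DKO hearts (limma, adjusted p = 0.000203 over probes), whereas both Akt1 probes had a higher mean in DKO, with log2 differences of 0.17 and 0.47 (limma, adjusted p = 0.199 and 0.139 over probes), and neither shows the deletion. The position of the Akt probes in relation to the deleted exons was not analysed here. The 9 cardiomyocyte markers were all detected, with a median log2 difference of -0.05 between DKO and control, 3 higher, 6 lower and 0 called. Groups did not overlap in Ryr2 (-0.38, limma, adjusted p = 0.0759), Actc1 (-0.24, adjusted p = 0.140) and Atp2a2 (0.20, adjusted p = 0.137). Of all genes 25.7% had no overlap. All 8 endothelial markers had a higher mean in DKO (median 0.20). So had 6 of 7 fibroblast markers (median 0.14) and 4 of 6 mural cell markers (median 0.29), of which Myh11 was called (0.63, limma, adjusted p = 0.0487). The per-array median of the mural markers was -0.01, 0.08, 0.02 and 0.03 in control and 0.25, 0.21 and 0.26 in DKO hearts. Acta2, the brightest mural marker, went the other way (-0.41, limma, adjusted p = 0.128). The summed linear signal of the 6 mural markers overlapped between groups, from 57165 to 69693 in control and from 54262 to 63851 in DKO hearts. The part of these cell types in the differences below was not tested.

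Proteasome transcripts were close to their control level in DKO hearts, with an exception in each direction. Psme4, the activator also called PA200, fell, and Psmd4, a ubiquitin receptor of the regulatory particle, rose. These were the 2 genes of 49 (4.08%) whose p, adjusted by Benjamini-Hochberg over all genes tested, was under 0.05 (two-sided, limma), where 4.7% of all genes passed. The share is near that background. By direction, 1 of 49 (2.04%) was called higher against 2.41% of all genes, and 1 (2.04%) lower against 2.29%. In 43 of the 49 genes the groups differed by less than 1.2-fold, and the 95% interval of the log2 difference lay within 0.5 either way in 38 genes and within 1 in all 49.

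**Figure D1:**
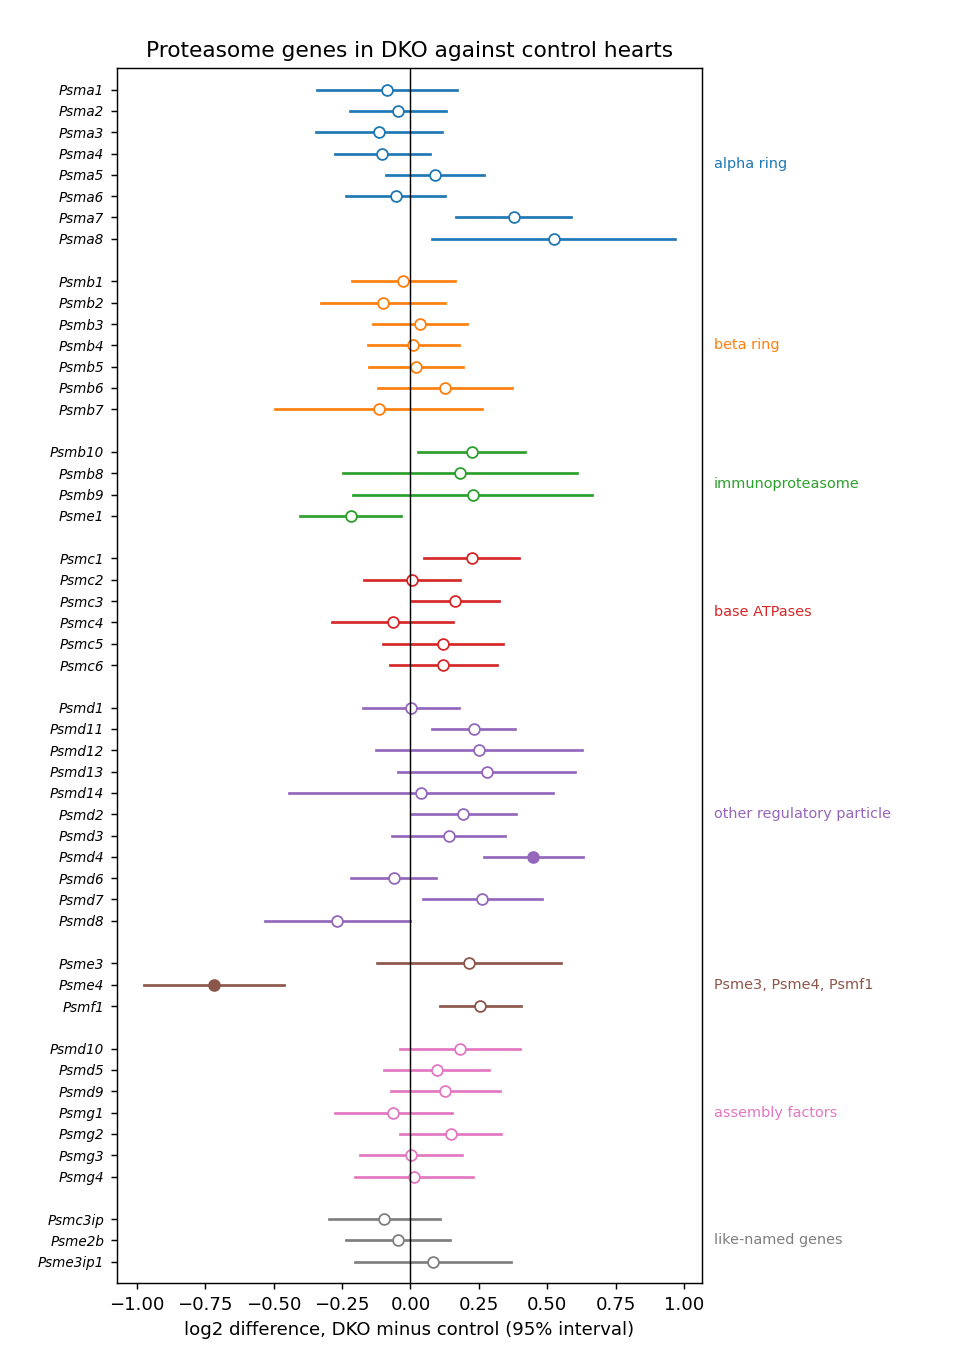
Log2 difference between DKO (n = 3) and control (n = 4) hearts for the 49 measured proteasome genes, grouped by role, with 95% intervals from limma; filled points have an adjusted p below 0.05. Psme4 lies at -0.72 and Psmd4 at 0.45, while most other genes lie within 0.3 of 0.

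Small differences leaned upward in count. The mean was higher in DKO for 33 of 49 genes (67.3%), against 46.9% of all genes, and the median log2 difference was 0.08 against -0.02 over all genes. The number of genes with a higher mean ranged from 26 to 36 over the other processing settings tried, with 26 under quantile normalization and in the authors' values. It also depended on the row of the slide in which an array lay (the rows are described below). Within row 1, 32 of 49 genes were higher in DKO (median 0.06). Within row 2 only 22 of 49 were higher (median -0.01), so the lean was not seen there. Row 1 holds 1 DKO array and row 2 holds 1 control array, so these values have no spread of their own. At an unadjusted p below 0.05, 10 genes (20.4%) were higher and 3 (6.12%) lower, against 11.6% and 13.9% of all genes and 25.5% in either direction. Groups without overlap were found in 13 genes, with DKO higher in 11 (22.4%) and lower in 2 (4.08%), against 13.2%, 12.5% and, in either direction, 25.7% of all genes. Subunits of 1 complex are not independent of each other, and these counts are a description of these 7 mice.

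**Figure D2:**
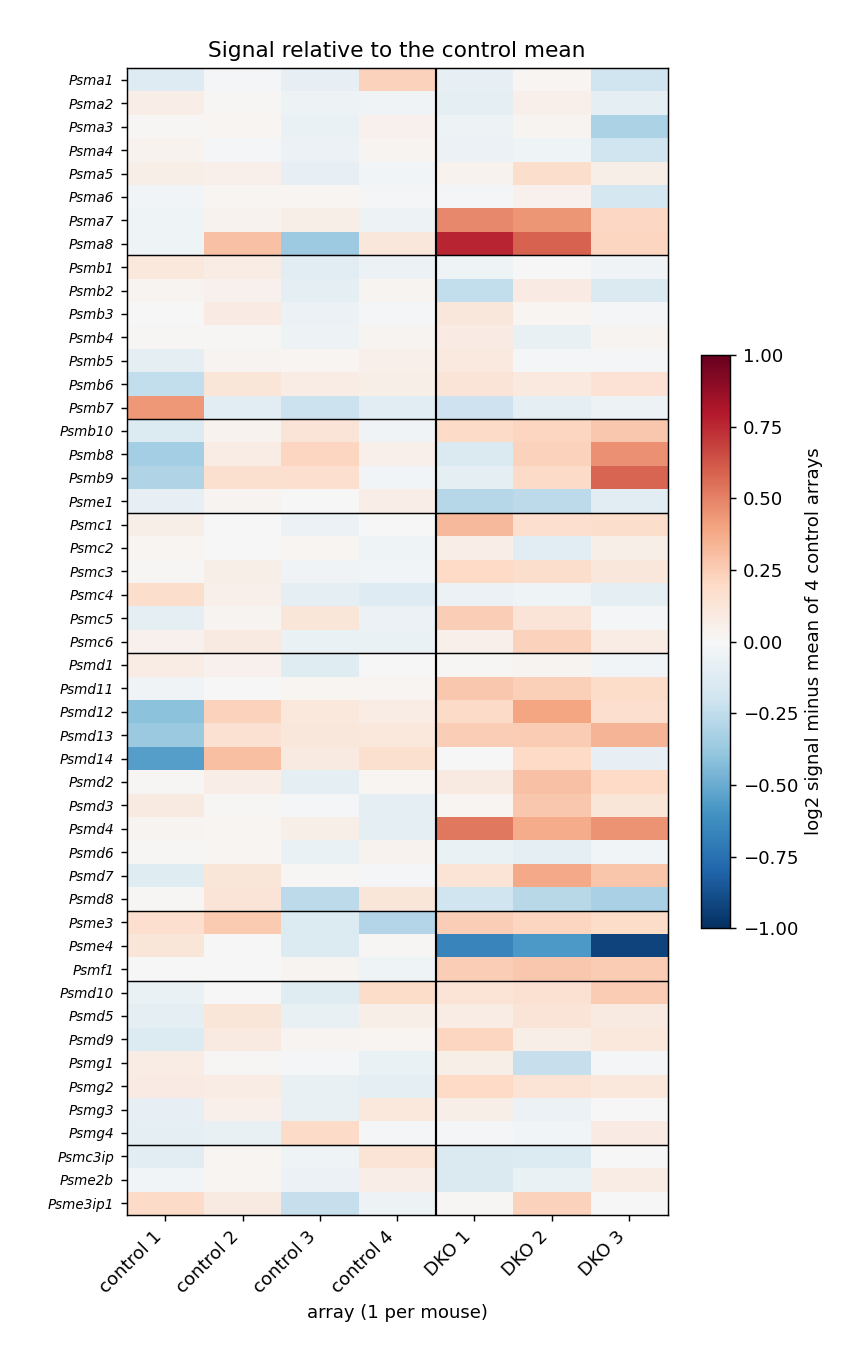
Log2 signal of each proteasome gene on each array minus its mean over the 4 control arrays, as colour from -1 (blue) to 1 (red), with the 4 control arrays left and the 3 DKO arrays right of the line. Psme4 is blue and Psmd4 red on every DKO array, and control array 1 departs from the other controls in Psmb7, Psmd13 and several more genes.

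Psme4 encodes a large single-chain activator that opens the core without ATP and is known for its part in the degradation of acetylated histones. Its brightest probe read 14.24, 14.12, 13.98 and 14.13 on the normalized log2 scale in the control hearts and 13.46, 13.54 and 13.19 in the DKO hearts. All DKO values lay below all control values. The mean fell from 14.12 ± 0.10 (SD, n = 4) to 13.40 ± 0.18 (SD, n = 3), a log2 difference of -0.72 ± 0.11 (SE) or 1.65-fold (limma, adjusted p = 0.0200). A second, dimmer probe for Psme4 read 11.30, 11.38, 11.23 and 11.26 in control and 10.52, 10.67 and 10.36 in DKO hearts. It showed the same separation, with a log2 difference of -0.78 ± 0.09 (limma, adjusted p = 0.0115 over probes). With any 1 array left out the difference stayed between -0.79 and -0.62. The adjusted p then passed in 4 of 7 fits and rose to 0.0675 without control array 4, 0.0687 without DKO array 1 and 0.0512 without DKO array 3 (limma).

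Psmd4 binds polyubiquitin chains and hands substrates to the unfolding base. Its brightest probe read 14.41, 14.40, 14.44 and 14.28 in control and 14.91, 14.75 and 14.83 in DKO hearts. Every DKO value was above every control value. The mean rose from 14.38 ± 0.07 to 14.83 ± 0.08, a log2 difference of 0.45 ± 0.08 (SE) or 1.37-fold (limma, adjusted p = 0.0279). The second probe read 12.41, 12.38, 12.47 and 12.42 in control and 12.94, 12.91 and 12.71 in DKO hearts. This gave a log2 difference of 0.43 ± 0.08 (limma, adjusted p = 0.0361 over probes). The Psmd4 call was less secure than its direction: leaving out 1 array kept the difference between 0.41 and 0.49, but the adjusted p passed in only 2 of 7 fits and was 0.0608, 0.0838, 0.0968, 0.0691 and 0.0801 without control arrays 3 and 4 and DKO arrays 1, 2 and 3 (limma).

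The arrays lay in both rows of 1 slide, and the groups filled the rows unevenly, with 3 control arrays and 1 DKO array in row 1 and 1 control array and 2 DKO arrays in row 2. Psme4 differed by -0.92 within row 1 and by -0.62 within row 2, and Psmd4 by 0.45 and 0.43. With the row as a block, Psme4 gave -0.78 (limma, adjusted p = 0.0476) and Psmd4 0.44 (limma, adjusted p = 0.0784), so that the Psmd4 call did not hold.

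The promoters of the called genes are shown to give the sequence context of the 2 differences that passed. Each run is the 250 bases before the start of the gene in RefSeq's annotation of GRCm38.p6, 5′ to 3′ on the gene's own strand, with any match to the searched motifs in capitals. The Psme4 window is chr11:30771525-30771774 on the plus strand, and none of the searched letters were in it. The Psmd4 window is chr3:95042615-95042864 on the minus strand. It holds a CCAAT box, read here on the opposite strand, 95 bases before the start and a match to the core of an interferon-stimulated response element, also on the opposite strand, 80 bases before the start.
Psme4: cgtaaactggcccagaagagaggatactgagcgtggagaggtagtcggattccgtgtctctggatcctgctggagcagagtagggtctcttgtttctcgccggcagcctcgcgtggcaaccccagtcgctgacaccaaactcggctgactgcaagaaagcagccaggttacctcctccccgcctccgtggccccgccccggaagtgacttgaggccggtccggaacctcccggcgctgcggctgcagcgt
Psmd4: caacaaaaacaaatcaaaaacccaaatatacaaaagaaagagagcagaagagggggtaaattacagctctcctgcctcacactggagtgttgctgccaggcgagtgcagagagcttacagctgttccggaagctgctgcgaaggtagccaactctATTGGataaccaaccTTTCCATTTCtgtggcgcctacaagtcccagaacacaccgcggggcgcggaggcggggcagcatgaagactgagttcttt

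Over all 7 arrays the upward lean was not confined to 1 class, and the regulatory particle was the largest class that showed it. Of its 17 subunits, 14 had a higher mean in DKO (12 to 14 over the processing settings), 7 had no overlap between groups and all 7 were higher (13.2% of all genes), and 1 was called (4.7% of all genes in either direction). The median log2 difference was 0.14, against -0.03 in the 15 core ring subunits and -0.02 over all genes. It was 0.10 in the 7 assembly factors, of which 6 had a higher mean in DKO. In the 4 immunoproteasome genes it was 0.20 (3 higher), and in Psme3, Psme4 and Psmf1 it was 0.21 (2 higher). Per array, the median over the 17 subunits of the signal relative to the control mean was 0.01, 0.05, -0.01 and 0.00 in control and 0.09, 0.20 and 0.12 in DKO hearts. All 3 DKO arrays lay above all 4 control arrays. The same held for the assembly factors (lowest DKO array 0.062, highest control array 0.051). It also held for Psme3, Psme4 and Psmf1 (0.18 and 0.12) and for all members together (0.058 and 0.039). Within slide rows the median difference of the 17 subunits was 0.13 in row 1 and 0.10 in row 2. The assembly factors gave 0.13 in row 1 and 0.05 in row 2 (4 of 7 higher). For the immunoproteasome genes it was 0.38 and -0.07 (1 of 4 higher in row 2). Psme3, Psme4 and Psmf1 gave 0.25 and -0.03 (1 of 3 higher in row 2). No test of the class as a whole was made.

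The 6 base ATPases, which form the ring that unfolds substrates and opens the core gate, had a median log2 difference of 0.12. Of these 5 were higher and 0 called, against 46.9% and 4.7% of all genes. Psmc1, whose tail docks into the core to open the gate, read 15.08, 15.01, 14.96 and 15.02 in control and 15.34, 15.19 and 15.19 in DKO hearts, without overlap (log2 difference 0.22 ± 0.07, limma, adjusted p = 0.124). Psmc3, another ATPase with a gate-opening tail, read 15.96, 16.01, 15.92 and 15.92 in control and 16.16, 16.13 and 16.07 in DKO hearts, also without overlap (0.16 ± 0.07, adjusted p = 0.184). Its 3 probes agreed in sign and differed in size, at 0.16, 0.33 and 0.29, and the middle probe passed over probes (limma, adjusted p = 0.0442). The brightest probe, which stands for the gene, did not. Psmc6 overlapped between groups, with 13.58, 13.63, 13.47 and 13.47 in control and 13.59, 13.77 and 13.61 in DKO hearts (0.12 ± 0.08, adjusted p = 0.40). The remaining ATPases Psmc2, Psmc4 and Psmc5 gave differences from -0.06 to 0.12.

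Among the 11 other regulatory particle subunits, 9 had a higher mean in DKO and the median log2 difference was 0.19. Psmd11, a lid subunit that braces the regulatory particle against the core, read 11.07, 11.11, 11.12 and 11.13 in control and 11.38, 11.34 and 11.29 in DKO hearts. Its groups did not overlap, and the difference of 0.23 ± 0.06 did not pass (limma, adjusted p = 0.0897). Psmd7, the lid subunit that pairs with the deubiquitinase Psmd14, read 12.21, 12.45, 12.35 and 12.32 in control and 12.47, 12.71 and 12.61 in DKO hearts. The lowest DKO value was just above the highest control value (0.26 ± 0.09, adjusted p = 0.139). Psmd14 itself varied most among the controls of any member, from 9.22 to 10.07, and gave a difference of 0.04.

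Psmd2, Psmd8 and Psmd13 are named here after their values were seen. Psmd2, the scaffold of the base on which shuttle factors dock, gave 0.19 ± 0.08 on its brightest probe and 0.29 on its second, with no overlap on either (limma, adjusted p = 0.191 in the gene fit and 0.0682 over probes). Psmd8, a lid subunit, was the only regulatory particle gene with an unadjusted p below 0.05 and a lower mean in DKO. It read 12.04, 12.15, 11.76 and 12.14 in control and 11.82, 11.74 and 11.70 in DKO hearts, so that control array 3 lay among the DKO values (-0.27 ± 0.11, limma, adjusted p = 0.193). Psmd13 read 12.87 on control array 1, well below the other control hearts, and its difference of 0.28 ± 0.14 did not pass (adjusted p = 0.254).

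**Figure D3:**
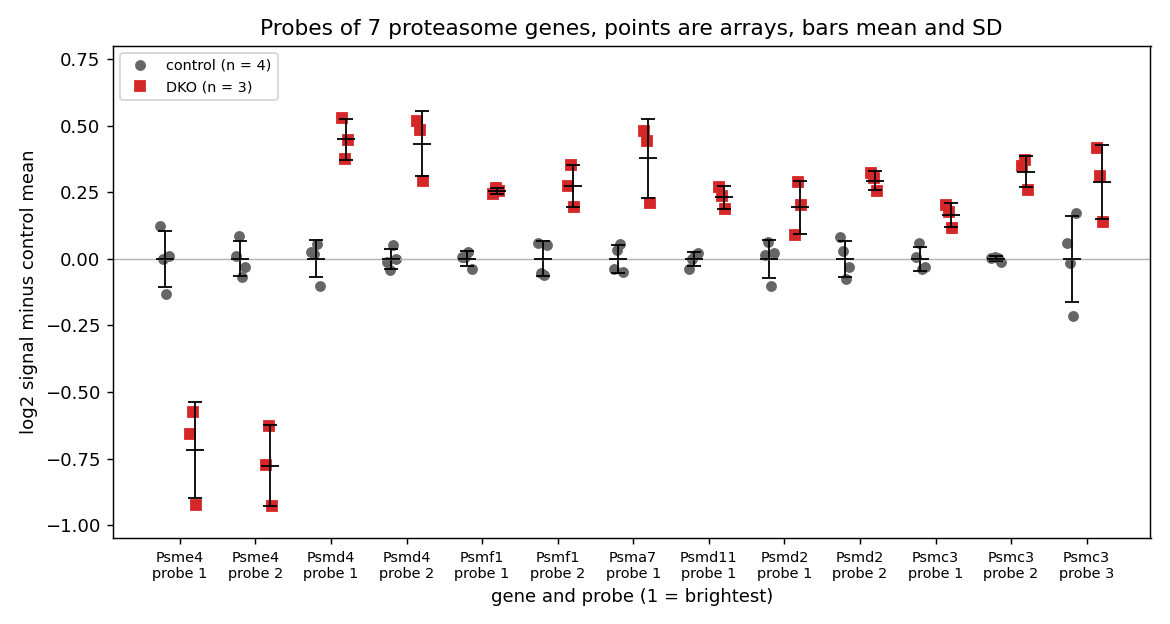
Log2 signal minus the control mean for every kept probe of Psme4, Psmd4, Psmf1, Psma7, Psmd11, Psmd2 and Psmc3; points are arrays and bars give the mean and SD of control (n = 4) and DKO (n = 3). Both Psme4 probes lie below 0 on all DKO arrays, and both Psmd4 probes lie above all control arrays.

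The core rings showed no common direction. Of the 15 ring subunits 7 had a higher and 8 a lower mean in DKO, and the median log2 difference was -0.03. By limma 0 were called, against 4.7% of all genes. An unadjusted p below 0.05 was found in 2, both alpha subunits, against 25.5% of all genes. Over the processing settings, 4 to 8 of the 15 were higher. The per-array median over these subunits was 0.01, 0.03, -0.06 and 0.03 in control and -0.02, 0.03 and -0.03 in DKO hearts, and the groups overlapped.

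Psma7 had the largest difference among the standard alpha subunits. It read 13.97, 14.04, 14.07 and 13.96 in control and 14.49, 14.45 and 14.22 in DKO hearts, without overlap, and the difference of 0.38 ± 0.09 (1.30-fold) fell short of the threshold (limma, adjusted p = 0.0617). It passed with probes required above background on all 7 arrays (adjusted p = 0.0477) and with robust, trended variances (adjusted p = 0.0182, both limma). Psma8, the alpha subunit that takes the place of Psma7 in germ cells, was dim, at 6.65, 6.99, 6.33 and 6.81 in control and 7.46, 7.29 and 6.91 in DKO hearts. Its groups overlapped and its interval was the widest of the class, from 0.08 to 0.97 around 0.52 (adjusted p = 0.145). Psma4, a standard ring subunit, read 14.20, 14.15, 14.11 and 14.19 in control and 14.10, 14.12 and 13.96 in DKO hearts (-0.10 ± 0.07, adjusted p = 0.421), and its 4 probes were all lower in DKO. The other alpha subunits Psma1, Psma2, Psma3, Psma5 and Psma6 gave differences between -0.11 and 0.09.

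The beta rings gave small differences. The 7 constitutive beta subunits gave log2 differences from -0.12 to 0.13 with a median of 0.01. Of these 0 had groups without overlap, against 25.7% of all genes. Psmb5, which carries the chymotrypsin-like site, read 13.40, 13.52, 13.51 and 13.54 in control and 13.59, 13.48 and 13.47 in DKO hearts (0.02 ± 0.07, limma, adjusted p = 0.885). The sign of this difference changed with the scaling, to -0.07 under quantile normalization, and is not a direction. Psmb6, which carries the caspase-like site, read 14.78, 15.15, 15.11 and 15.09 in control and 15.16, 15.13 and 15.18 in DKO hearts (0.13 ± 0.10, adjusted p = 0.485), with control array 1 alone below the rest. Psmb7, which carries the trypsin-like site, read 13.51, 12.98, 12.87 and 12.97 in control and 12.88, 12.99 and 13.03 in DKO hearts. Here control array 1 was alone above the rest, and the difference of -0.12 ± 0.16 (adjusted p = 0.682) became 0.03 without it. Psmb2, a subunit without an active site, read 10.47, 10.49, 10.35 and 10.48 in control and 10.20, 10.53 and 10.31 in DKO hearts (-0.10 ± 0.10, adjusted p = 0.543).

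**Figure D4:**
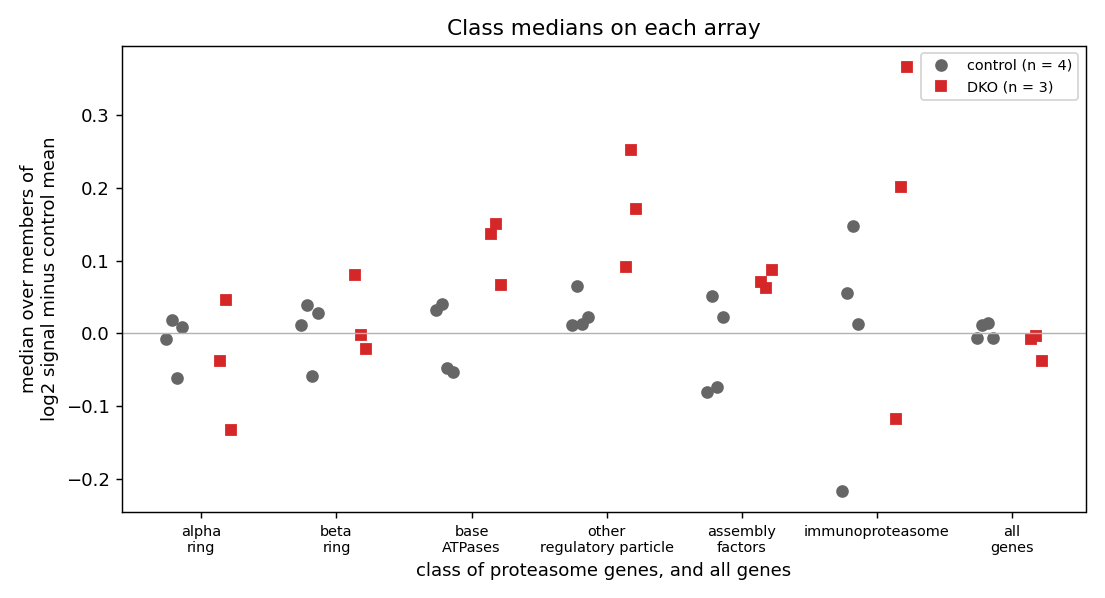
Median over the genes of each class of the log2 signal minus the control mean, 1 point per array, for 4 control and 3 DKO arrays. The DKO points of the regulatory particle classes and of the assembly factors lie above the control points. Those of the alpha and beta rings overlap them, and those of the immunoproteasome spread from -0.12 to 0.37.

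The immunoproteasome genes did not share a direction. Of 4 measured genes 3 had a higher and 1 a lower mean in DKO. By limma 0 were called, against 4.7% of all genes. An unadjusted p below 0.05 was found in 2, Psmb10 higher and Psme1 lower, against 25.5% of all genes. So few genes cannot be told from these shares. The median log2 difference was 0.20. That median was 0.046 without DKO array 3, 0.098 without control array 1 and 0.29 without DKO array 1. Psmb8 replaces Psmb5 in immunoproteasomes. It read 10.40, 10.81, 10.96 and 10.79 in control and 10.60, 10.97 and 11.20 in DKO hearts (0.18 ± 0.18, adjusted p = 0.562). Psmb9, which replaces Psmb6, read 10.42, 10.88, 10.89 and 10.70 in control and 10.63, 10.91 and 11.30 in DKO hearts (0.23 ± 0.19, adjusted p = 0.475). Both genes gave the same order of the 7 mice, lowest on control array 1 and then DKO array 1, and highest on DKO array 3. They lie in the class II region of the major histocompatibility complex on chromosome 17, with only the peptide transporter gene Tap1 between them among tested genes.

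Psmb10, which replaces Psmb7 and lies elsewhere in the genome, read 13.88, 14.05, 14.13 and 13.98 in control and 14.20, 14.22 and 14.28 in DKO hearts. Every DKO value was above every control value, by a small margin, and the difference of 0.22 ± 0.08 did not pass (limma, adjusted p = 0.154). Psme1, a subunit of the interferon-inducible activator PA28, went the other way, with 14.31, 14.42, 14.39 and 14.46 in control and 14.11, 14.13 and 14.29 in DKO hearts. Its groups did not overlap either (-0.22 ± 0.08, adjusted p = 0.146). Within slide row 1 the median difference of the 4 genes was 0.38 and within row 2 it was -0.07, where Psmb8 gave 0.48 and -0.03 and Psmb9 gave 0.64 and -0.11. Psmb10 gave 0.28 and 0.16, and Psme1 gave -0.10 and -0.30, each with 1 sign in both rows. With the row as a block the class median was 0.23. Each row holds 1 array of a group, DKO array 3 in row 1 and control array 2 in row 2, so these values have no spread of their own.

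The exchange of constitutive for inducible subunits was read as the change of the inducible gene relative to its constitutive partner on the same array. Psmb8 relative to Psmb5 changed by 0.16 ± 0.23 (log2, SE, two-sided exact permutation p = 0.4, adjusted p = 0.571 over 3 pairs). Relative to the control mean it stood at -0.25, 0.04, 0.20 and 0.00 in control and -0.24, 0.24 and 0.48 in DKO hearts. Psmb9 relative to Psmb6 changed by 0.10 ± 0.19 (exact p = 0.571, adjusted p = 0.571), with DKO arrays from -0.22 to 0.44. Psmb10 relative to Psmb7 changed by 0.34 ± 0.20 (exact p = 0.171, adjusted p = 0.514), and control array 1 stood at -0.56 in it against 0.08 to 0.34 in the other controls. The smallest p that the 35 regroupings allow is 0.0286, and a single changed pair among 3 could then reach an adjusted p of 0.0857 at best, so the adjusted test could not pass for 1 pair alone.

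**Figure D5:**
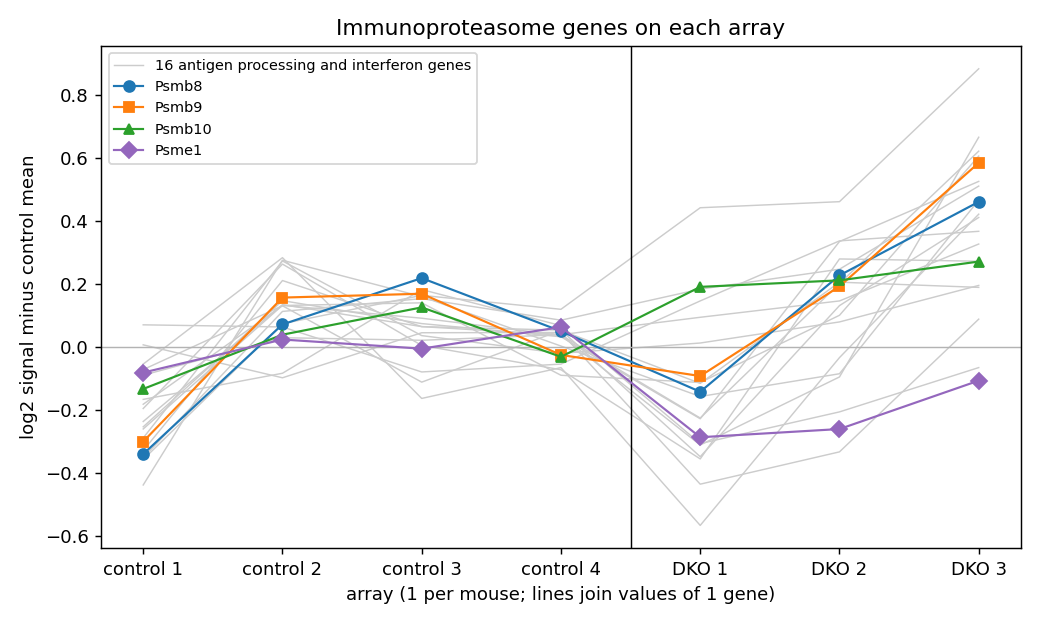
Log2 signal minus the control mean for Psmb8, Psmb9, Psmb10 and Psme1 on each array, over 16 antigen processing and interferon genes in grey. Psmb8 and Psmb9 are low on control array 1 and DKO array 1 and high on DKO array 3, as are most grey lines. Those of Calr, Tap2, Tapbp and Irf1 are not low on DKO array 1.

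The per-array median of the antigen processing and interferon genes showed the same mouse to mouse pattern, although not every gene did. Of 16 such genes 13 had a higher mean in DKO, against 46.9% of all genes, and the list median log2 difference was 0.09. By limma 0 were called, against 4.7% of all genes (2 at an unadjusted p below 0.05, Calr and Tap2, against 25.5%). Their per-array median was -0.22, 0.13, 0.06 and 0.04 in control and -0.19, 0.14 and 0.42 in DKO hearts. Tap1, the neighbour of Psmb8 and Psmb9, read 9.45, 9.76, 9.77 and 9.54 in control and 9.52, 9.73 and 10.24 in DKO hearts. The genes with the smallest p were the peptide-loading chaperone Calr (0.59 ± 0.17, limma, adjusted p = 0.0914), the transporter Tap2 (0.28 ± 0.09, adjusted p = 0.108), the loading factor Tapbp (0.19 ± 0.08, adjusted p = 0.211) and the transcription factor Irf1 (0.31 ± 0.15, adjusted p = 0.238). These genes departed from that pattern, as each read higher on DKO array 1 than on any control array. Calr read 13.74 there, against at most 13.46 in control.

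Leukocytes express immunoproteasome subunits at high levels, so their markers are given beside these values. Of 23 leukocyte markers 21 were measured, and Cd79a and Cd8a were at background on all arrays. The median log2 difference of the measured markers was 0.01, and their summed linear signal ran from 40792 to 51738 in control and from 38906 to 44441 in DKO hearts. Itgam, the brightest marker, weighs most in that sum. Its log2 mean was 14.35 in control and 13.97 in DKO hearts, and it was highest on control array 1, at 14.85. The per-array median of the leukocyte markers was -0.12, 0.00, 0.19 and 0.02 in control and -0.17, 0.07 and 0.07 in DKO hearts, lowest on the same pair of arrays as Psmb8 and Psmb9. The part of leukocytes in the immunoproteasome values was not tested.

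The other activator and the inhibitor had higher means in DKO and did not pass. Psmf1, which encodes PI31, a protein that binds the core and inhibits it in vitro, varied little within each group. It read 9.89, 9.89, 9.91 and 9.84 in control and 10.13, 10.15 and 10.13 in DKO hearts. The groups were well apart for their spread, but the difference was small, at 0.26 ± 0.06 or 1.19-fold, and did not pass (limma, adjusted p = 0.0664). The second probe for Psmf1 gave 0.27 (adjusted p = 0.0925 over probes). Psme3, the nuclear activator PA28 gamma, read 10.55, 10.64, 10.24 and 10.09 in control and 10.63, 10.60 and 10.56 in DKO hearts, with overlapping groups (0.21 ± 0.14, adjusted p = 0.383). Of the 3 activator genes with a probe of their own, Psme4 and Psme1 had a lower and Psme3 a higher mean in DKO, and Psme2 was not measured separately.

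The assembly factors gave small differences. Of 7 genes 6 had a higher mean in DKO, against 46.9% of all genes, and the median was 0.10, with a range from -0.06 to 0.18. By limma 0 were called, also 0 at an unadjusted p under 0.05, against 4.7% and 25.5% of all genes. Psmd10, the oncoprotein gankyrin and a chaperone of base assembly, read 10.06, 10.13, 10.00 and 10.31 in control and 10.26, 10.28 and 10.38 in DKO hearts (0.18 ± 0.09, adjusted p = 0.267). Psmg2, a chaperone that acts early in alpha ring assembly, read 11.44, 11.43, 11.28 and 11.27 in control and 11.55, 11.49 and 11.46 in DKO hearts, without overlap (0.15 ± 0.08, adjusted p = 0.284). Psmd9, another base chaperone, read 8.94, 9.17, 9.10 and 9.10 in control and 9.30, 9.14 and 9.19 in DKO hearts (0.13 ± 0.08, adjusted p = 0.381). The base chaperone Psmd5 and the core chaperones Psmg1, Psmg3 and Psmg4 lay between -0.06 and 0.10. The 3 other genes with such a symbol gave -0.09 for Psmc3ip, -0.04 for Psme2b and 0.08 for Psme3ip1.

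A second look at the same transcripts was possible where a gene had several probes. The array held 76 probes for these genes, of which 73 were kept, and 19 genes had more than 1. All probes of a gene had the same sign of difference in 11 of these 19, among them Psme4, Psmd4, Psmf1, Psmd2, Psmc3 and Psma4. In the others the probes disagreed in sign around small differences, as in Psmb6, whose second probe gave -0.02.

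Genes that work with the proteasome or control it showed differences of similar size. Of 26 listed partners and regulators 22 were measured, and 18 had a higher mean in DKO, against 46.9% of all genes. The median log2 difference was 0.14. Of the 22 genes 1 was called, against 4.7% of all genes in either direction, so the count is near the background share. The called gene was Ubqln2, a shuttle factor that carries ubiquitinated proteins to the proteasome. It read 11.39, 11.52, 11.47 and 11.53 in control and 11.83, 11.90 and 12.02 in DKO hearts (0.44 ± 0.08, limma, adjusted p = 0.0327), and with 1 array left out it passed in 1 of 7 fits, with adjusted p up to 0.0960. The next were Uchl5, a deubiquitinase of the regulatory particle (0.32 ± 0.07, adjusted p = 0.0553), the Vcp cofactor Nploc4 (0.28 ± 0.07, adjusted p = 0.0614) and the shuttle protease Ddi2 (0.28 ± 0.10, adjusted p = 0.15). Nfe2l1, the factor that induces proteasome genes when proteasome activity is low, gave -0.15 ± 0.11 (limma, adjusted p = 0.436), Sem1, the smallest lid subunit, 0.16 (adjusted p = 0.266), and the core maturation factor Pomp 0.06 (adjusted p = 0.597). These last 3 are named for their role and after their values were seen.

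The ubiquitin supply was examined with 6 genes for ubiquitin and its activating enzymes. Of these 4 had a higher mean in DKO, against 46.9% of all genes, and the median log2 difference was 0.11. By limma 0 were called, also 0 at an unadjusted p under 0.05, against 4.7% and 25.5% of all genes. The stress-inducible polyubiquitin gene Ubb gave 0.18 ± 0.08 (limma, adjusted p = 0.208). The activating enzyme Uba6 gave -0.30 ± 0.15 (adjusted p = 0.265), and the ubiquitin-ribosomal fusion gene Rps27a gave 0.14 ± 0.08 (adjusted p = 0.340).

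The promoters of the members were searched on both strands for motifs of factors known to act on proteasome or interferon genes. RefSeq's table of GRCm38.p6 held an entry for 41 of the 49 members, and none for Psma8, Psmb1, Psmb2, Psmb7, Psmc3, Psmd3, Psmd7 and Psmg2. The antioxidant response element core, spelled TGACNNNGC and bound by Nfe2l1 and Nfe2l2, was in 5 of 41 member windows (12.2%) and in 11.5% of the 27025 genes with an entry. The CCAAT box was in 15 (36.6%, against 37.5%), and the STAT site TTCNNNGAA in 2 (4.88%, against 8.13%). TATAAA, the TATA box, was in 4 (9.76%, against 14.3%). The interferon-stimulated response element core was in 3 (7.32%, against 3.46%), namely Psmb3, Psmd4 and Psmd9. The site of the nuclear respiratory factor Nrf1 was in 6 (14.6%, against 4.23%), namely Psma2, Psma3, Psma4, Psmc4, Psmc5 and Psmd14. A match is a description of the letters and no test was made of these shares.

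The stretches that hold the antioxidant response element core are shown because proteasome genes are a known target set of the factors that bind it. The element is in capitals, in whichever orientation it occurs, and each run is 5′ to 3′ on the gene's own strand in GRCm38.p6. The stretches are chr14:54618018-54618058 (minus strand) for Psmb5, chr11:70525332-70525356 (plus) for Psmb6, chr14:45329581-45329621 (plus) for Psmc6, chr11:107479278-107479305 (plus) for Psmd12 and chr5:123228143-123228183 (plus) for Psmd9. The 5 genes gave log2 differences of 0.02 for Psmb5, 0.13 for Psmb6, 0.12 for Psmc6, 0.25 for Psmd12 and 0.13 for Psmd9, and none was called.
Psmb5: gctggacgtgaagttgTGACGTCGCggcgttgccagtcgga
Psmb6: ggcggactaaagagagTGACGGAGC
Psmc6: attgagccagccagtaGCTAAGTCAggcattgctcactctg
Psmd12: tctGCTGTGTCAcatttgcccccctcag
Psmd9: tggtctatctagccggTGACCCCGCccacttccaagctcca

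Some members lie on the chromosomes of the floxed genes. In the order of tested genes, Psmc4 was 9 and Psmd8 50 genes from Akt2 on chromosome 7, and Psmc1 was 109 genes from Akt1 on chromosome 12. Their log2 differences were -0.06, -0.27 and 0.22, and none was called. Psme4 and Psmd4 lie on other chromosomes, 11 and 3.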

How the data were processed

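Total RNA of the heart apex of 7 mice (100 ng each) was labelled with Cy3 and measured on 1 slide of 1-colour Agilent arrays (design 074809). Per the file headers, the authors quantified the scans with Feature Extraction 12.0.3.1. The files deposited for each array give 62976 spots a processed, background-subtracted signal as a linear intensity, with median signal, background and flags. A value table deposited by the authors holds log2 values, and it matched (r from 0.9997 to 0.9999) quantile normalized log2 signals centred on each probe's median, with every column median at 0. For the software behind that table, the sources used here name none.

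Control spots and outlier spots were not used. The scale is the log2 processed signal minus each array's 75th percentile, plus a constant of 9.139. Probes were named through RefSeq accessions (32994 of 56605), kept where well above background on 3 or more arrays, and reduced to the brightest probe per gene. The comparison of DKO (n = 3) with control (n = 4) used lmFit and eBayes of limma 3.58.1 under R 4.3.3 (5 residual and 2.114 prior degrees of freedom), with Benjamini-Hochberg adjustment across the 23678 genes, and a fit over 30466 probes was made in the same way. Each array is a separate mouse, per the labels, and arrays correlated at 0.984 to 0.994 within control, 0.991 to 0.992 within DKO and 0.978 to 0.990 between the groups. The subunit pairs were tested by exact permutation of the group labels over the 7 arrays.

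The member genes, their classes, the pathway lists and the markers were chosen with earlier results of these data known. Values on every array are given for called members, immunoproteasome members, members of the subunit pairs and the 3 members with the smallest p in each other class. For lists, the called genes or up to 4 with the smallest p are named, of which 1 is not reported here. Alternatives were quantile normalization, centring on detected probes, normexp background (offset 50, on the median spot signal, as the files used here carry no mean signal), no filter, detection required on all 7 arrays, values of the authors' table, a gene's mean over probes, robust and trended variances, a block for replicate number or for slide row, and each array left out. Sample titles call the hearts untreated, which was taken here to mean no treatment beyond tamoxifen.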

Additional observations from a re-analysis of the deposited data

Results flagged for a closer look

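In 4 of the 49 proteasome genes 1 control array lay apart from the other control arrays by more than Dixon's 95% critical value for 4 values allows. Chance flags about 1 in 20 such groups. The array was control array 1 in 3 of the 4 genes. Psmb6 read 14.78 there, against 15.09 to 15.15 in the other controls. Psmb7 read 13.51, against 12.87 to 12.98. Psmd13 read 12.87, against 13.35 to 13.39. The second probes of Psmb6 and Psmd13 were highest among the controls on that array, at 14.05 and 9.59, so the departure was not shared by the probes of these genes. Psmb2 read 10.35 on control array 3, against 10.47 to 10.49 in the other controls. None of the 4 genes was called with all arrays in the fit.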

How the results depend on the processing

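Psme4 kept a lower and Psmd4 a higher mean in DKO under all alternatives run, with log2 differences from -0.80 to -0.71 and from 0.33 to 0.46 over the settings other than left-out arrays. The count of members called moved from 2 to 1 under quantile normalization, normexp background and the slide row block (Psme4 in each), to 0 with no filter, where 45553 genes were tested, and to 6 with robust and trended variances (Psma7, Psmc1, Psmd11, Psmd4, Psme4 and Psmf1). It was 0 to 2 with 1 array left out. The count over all genes moved from 1114 to 549 with normexp, 121 with no filter, 2028 with robust and trended variances and 288 with the slide row block, and ran from 161 to 1127 with 1 array left out. Of the pathway genes, 1 of which was called, 0 were called with no filter or the slide row block, 3 with the filter on all 7 arrays, 4 with robust and trended variances, and 0 to 1 with 1 array left out.

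No pairing of the mice by replicate number was seen: deviations of same-numbered arrays correlated at 0.13, 0.01 and 0.03, and not every array correlated best with its own number. These correlations cannot show how the mice were matched. With the replicate block, which uses 3 pairs and leaves out control array 4, 0 members, 0 pathway genes and 1 gene in all were called, Akt2 did not pass (adjusted p = 0.111 by limma), and the median of Psme3, Psme4 and Psmf1 was 0.12.

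Class medians moved as follows. Over all members the median was 0.026 with quantile normalization and 0.050 with the mean of probes, and 0.042 to 0.11 with 1 array left out. For core ring subunits it was -0.10 with quantile normalization. For regulatory particle subunits it was 0.077 with quantile normalization, 0.092 with normexp and 0.11 to 0.19 with 1 array left out. The assembly factors gave 0.036 with normexp, and Psme3, Psme4 and Psmf1 gave 0.13 with the slide row block and 0.12 to 0.26 with 1 array left out. Signs changed where differences were near 0. Psmb5 gave -0.068 with quantile normalization, -0.014 with normexp, -0.049 in the authors' values and -0.017 to 0.041 with 1 array left out. Psmb7 gave 0.014 with normexp and -0.19 to 0.028 with 1 array left out. With 1 array left out, the change of Psmb9 relative to Psmb6 ran from -0.064, without DKO array 3, to 0.27, that of Psmb8 relative to Psmb5 from 0.0014 to 0.36, and that of Psmb10 relative to Psmb7 from 0.15 to 0.45. The immunoproteasome median ran from 0.046 to 0.29. Apart from fewer or more genes tested and fewer arrays, the cause was not tested. With 3 DKO and 4 control arrays, a gene whose 95% interval includes 0 cannot be told from no difference.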
